A study of Mus musculus with 6 samples.

Results

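The type I interferon-stimulated genes examined here are a list of 37 antiviral genes, found by gene symbol in the platform's probe annotation and each read from 1 probe set, the one of highest mean level. Of these, 34 had a probe set assigned to that gene alone and 33 passed the filter on low values and were tested, among 11147 genes tested in all. Mx2 lay below the filter, and Isg15, Ifi47 and Ifi44 were not analysed here, the first pair because their probe sets are also assigned to another gene. RNA was hybridised to Affymetrix arrays from splenic CD8+ T cells of female C57BL/6 mice that carry the Pmel-1 T cell receptor transgene, which recognises a peptide of the melanocyte protein gp100. The 6 arrays fall into 3 groups of 2: IL-12 primed cells and IL-2 primed cells, both given gp100 for 4 days and their cytokine for 6 days, and naive cells taken fresh from spleen. The design text gives 6 days for antigen and cytokine together. Naive cells were sorted as CD8+ Thy1.1+; no sort of the primed cells is given in the labels. The comparison of IL-12 with IL-2 primed cells was made to find genes that antitumour activity in vivo depends on, and the question asked of this set was which genes follow Usp18.

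Type I interferons bind the receptor chains IFNAR1 and IFNAR2, whose kinases JAK1 and TYK2 phosphorylate STAT2. It joins IRF9, and the complex binds interferon-stimulated response elements in the promoters of antiviral genes, several of which are also induced by interferon gamma. USP18 is itself induced by this route, removes the ubiquitin-like protein ISG15 from its targets and binds IFNAR2 to damp further signalling. Naive T cells are known to keep a low tonic interferon signature.

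All levels are log2 values after RMA, the background correction, quantile normalisation and probe summary used for Affymetrix arrays, so a difference of 1 is a 2-fold change, and levels of different genes are not set against each other. Values on the arrays ran between 2.51 and 14.72, and the correlation between the arrays of a group was 0.992 for IL-12, 0.994 for IL-2 and 0.986 for naive cells. The mean over 9 CD8 T cell identity genes was 11.85 and 11.83 on the IL-12 arrays, 12.20 and 12.25 on the IL-2 arrays and 12.11 and 12.28 on the naive arrays. Of these genes 5 were called lower in IL-12 than in IL-2 primed cells (11.0% of all tested genes). In IL-12 against naive cells 6 were called lower (26.7% of all tested genes). In IL-2 against naive cells 1 was called higher and 1 lower (25.8% and 19.9% of all tested genes). The mean over 5 CD4 and regulatory T cell genes was 7.49 and 7.48 on the IL-12 arrays, 7.60 and 7.62 on the IL-2 arrays and 6.94 and 6.93 on the naive arrays. Of the 3 of them tested, 2 (Zbtb7b and Ikzf2) were called higher than in naive cells in both primed groups. Foxp3, tested but not called against naive cells, had group means of 7.17 in IL-12 primed, 7.22 in IL-2 primed and 7.19 in naive cells. Cd4 and Cd40lg lay below the filter, at 6.43, 6.25 and 6.59 and at 5.73, 5.46 and 5.28 in the same order. Probe sets of Y-linked genes, which these female mice do not carry, had group means between 3.32 and 4.96. That is the level these probe sets read without transcript. Other probe sets may have a different floor, so which low values of other genes lie at their floor is not known. Whether arrays of 1 group stand for different mice or cultures is not stated in the labels, so p-values measure the spread between these arrays, which may be technical. The number of arrays limits the precision. Tests were made with limma across all 11147 genes, and a call means a Benjamini-Hochberg adjusted p under 0.05.

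Promoters of 6 members are shown because these genes stand for the different behaviours described below: Samd9l, Ifit1 and Oas3 were lower in IL-2 primed than in naive cells and lower still in IL-12 primed cells, Ifit3 and Rsad2 were low in both primed groups without a call between them, and Bst2 had no call at all. For Ifit1 and Oas3, calls of this stepwise fall were lost under some alternatives, as given below. Each is the 250 bases before the annotated start of transcription, 5′ to 3′ on the gene's own strand, from RefSeq on GRCm38.p6: chr6:3399572-3399821 (minus strand) for Samd9l, chr19:34640639-34640888 (plus) for Ifit1, chr5:120777660-120777909 (minus) for Oas3, chr19:34583279-34583528 (plus) for Ifit3, chr12:26456453-26456702 (minus) for Rsad2 and chr8:71537473-71537722 (minus) for Bst2. Capitals mark matches to the interferon-stimulated response element, searched as GAAANNGAAA on both strands.
Samd9l: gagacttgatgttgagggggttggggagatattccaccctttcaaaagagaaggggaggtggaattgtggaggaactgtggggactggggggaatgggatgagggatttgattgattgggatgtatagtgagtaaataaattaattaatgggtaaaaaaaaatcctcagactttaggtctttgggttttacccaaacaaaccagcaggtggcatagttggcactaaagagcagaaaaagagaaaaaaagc
Ifit1: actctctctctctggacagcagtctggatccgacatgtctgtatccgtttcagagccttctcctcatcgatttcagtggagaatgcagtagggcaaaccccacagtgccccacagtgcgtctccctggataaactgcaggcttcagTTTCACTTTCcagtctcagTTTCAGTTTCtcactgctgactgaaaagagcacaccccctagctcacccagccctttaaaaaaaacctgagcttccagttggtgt
Oas3: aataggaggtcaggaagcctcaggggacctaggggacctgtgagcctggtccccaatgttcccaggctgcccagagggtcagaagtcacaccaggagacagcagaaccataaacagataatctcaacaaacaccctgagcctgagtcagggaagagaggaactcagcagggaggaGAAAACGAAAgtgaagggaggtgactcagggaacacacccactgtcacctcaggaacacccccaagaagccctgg
Ifit3: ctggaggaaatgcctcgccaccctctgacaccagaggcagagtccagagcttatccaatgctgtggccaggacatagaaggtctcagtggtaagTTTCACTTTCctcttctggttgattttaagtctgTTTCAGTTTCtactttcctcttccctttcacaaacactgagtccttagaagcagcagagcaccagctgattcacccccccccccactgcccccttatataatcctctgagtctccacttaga
Rsad2: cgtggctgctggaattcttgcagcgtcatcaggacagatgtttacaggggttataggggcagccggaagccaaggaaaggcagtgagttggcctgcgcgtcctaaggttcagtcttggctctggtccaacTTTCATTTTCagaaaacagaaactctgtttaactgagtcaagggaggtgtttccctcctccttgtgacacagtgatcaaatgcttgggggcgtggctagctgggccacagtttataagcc
Bst2: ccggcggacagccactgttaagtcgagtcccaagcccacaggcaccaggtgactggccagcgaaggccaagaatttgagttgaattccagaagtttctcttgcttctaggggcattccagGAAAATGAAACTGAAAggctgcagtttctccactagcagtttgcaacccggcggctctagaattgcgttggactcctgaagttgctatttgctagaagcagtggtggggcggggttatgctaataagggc
In Ifit1 the matches began 104 and 85 bases before the start site, in Ifit3 156 and 122, in Oas3 75 and in Rsad2 120, while the matches in Bst2, at 130 and 124, overlap each other. Samd9l, whose product restricts virus replication and cell growth, had no match in this window. RefSeq windows of 250 bases before to 50 after the start were matched for 27 of the 37 members. Of these, 13 held the motif (48.1%), against 3.99% of 27025 genes and 3.44% of 32851 windows in the table. The gamma-activated site, searched as TTCNNNGAA, which reads the same on both strands and can overlap the other motif, was held by 6 of the 27 members (22.2%), against 9.55% of genes and 8.3% of windows. The response element was present in 4 of 7 members with a window among those lower still in IL-12 primed cells, in 5 of 11 that fell in IL-2 primed cells without a call between the cytokines, and in 1 of 4 that were lower in IL-12 than in IL-2 primed cells with no fall in IL-2. A match describes the letters only. Usp18, Mx1, Mx2, Oas2, Rtp4, Dhx58, Zbp1, Ifi27l2a, Parp9 and Parp14 had no window.

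Usp18 was the member that lay near the naive level in IL-12 primed cells and far below it in IL-2 primed cells. Its values were 10.84 and 10.03 in IL-12 primed, 6.36 and 6.28 in IL-2 primed and 10.53 and 10.90 in naive cells. The IL-12 and naive arrays overlapped, and both IL-2 arrays lay far below all 4 of them. In IL-12 against IL-2 primed cells Usp18 was 17.3-fold higher (log2 difference 4.11 ± 0.24 SE, limma adjusted p = 2.19e-05), which ranked 3 among the rises of all tested genes. It was 21.0-fold lower in IL-2 primed than in naive cells (-4.39 ± 0.24, adjusted p = 1.43e-06). IL-12 against naive cells gave -0.28 ± 0.24 (adjusted p = 0.338), and IL-12 primed cells closed 93.6% of the log2 gap between IL-2 primed and naive cells. Without IL-12 replicate 1, the higher of the IL-12 arrays, that difference was -0.69 and passed (adjusted p = 0.0141).

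Mx1, a dynamin-like GTPase that blocks influenza virus where it is intact and that carries a deletion in C57BL/6 mice, was the other member with this pattern. Its values were 7.22 and 7.35 in IL-12 primed, 6.93 and 6.70 in IL-2 primed and 7.44 and 7.25 in naive cells. Both IL-2 arrays were the lowest, but the whole range spanned less than 1 log2 unit. The difference was 0.47 ± 0.12 for IL-12 against IL-2 (1.39-fold, adjusted p = 0.0289) and -0.53 ± 0.12 for IL-2 against naive (adjusted p = 0.0082), with -0.06 for IL-12 against naive (adjusted p = 0.728). The IL-12 against IL-2 call was lost without any 1 of the 4 arrays of those groups, with adjusted p-values of 0.0746 and 0.181 without IL-12 replicates 1 and 2 and of 0.0608 and 0.231 without IL-2 replicates 1 and 2. The IL-2 against naive call was lost without IL-2 replicate 2 (adjusted p = 0.0843).

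The pattern of a fall in IL-2 primed cells and a higher level in IL-12 than in IL-2 primed cells was taken from Usp18 itself. Of the other 32 tested members 1 had it (3.12%), the Mx1 call that single arrays decide, and 216 of all 11147 genes had it (1.94%). Ordered by the smaller of the log2 differences from IL-2 primed cells, Usp18 stood at rank 1 of those 216 with 4.11 and Mx1 at rank 145 with 0.47. Next to Usp18 came Trat1 with 3.26, which encodes a T cell receptor associated adaptor, then Prag1 with 2.41, H2-Aa with 2.25, Ms4a1 with 2.11, Enpp4 with 2.07 and Cd74 with 2.04. H2-Aa and Cd74 encode an MHC class II chain and its invariant chain, and Ms4a1 encodes the B cell protein CD20. Over the 12 B cell markers measured, the mean level was 7.43 and 7.51 on the IL-12 arrays, 6.55 and 6.53 on the IL-2 arrays and 8.87 and 8.78 on the naive arrays. Of these markers 10 were called higher in IL-12 than in IL-2 primed cells, and all 12 were called lower than in naive cells in either primed group. Group means of the 12 ran between 5.62 and 9.83 in IL-12 primed, between 5.41 and 8.93 in IL-2 primed and between 7.55 and 10.84 in naive cells. Their part in the Usp18 difference was not tested, and in bulk RNA fewer cells of a type and less RNA per cell cannot be told apart.

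**Figure D1:**
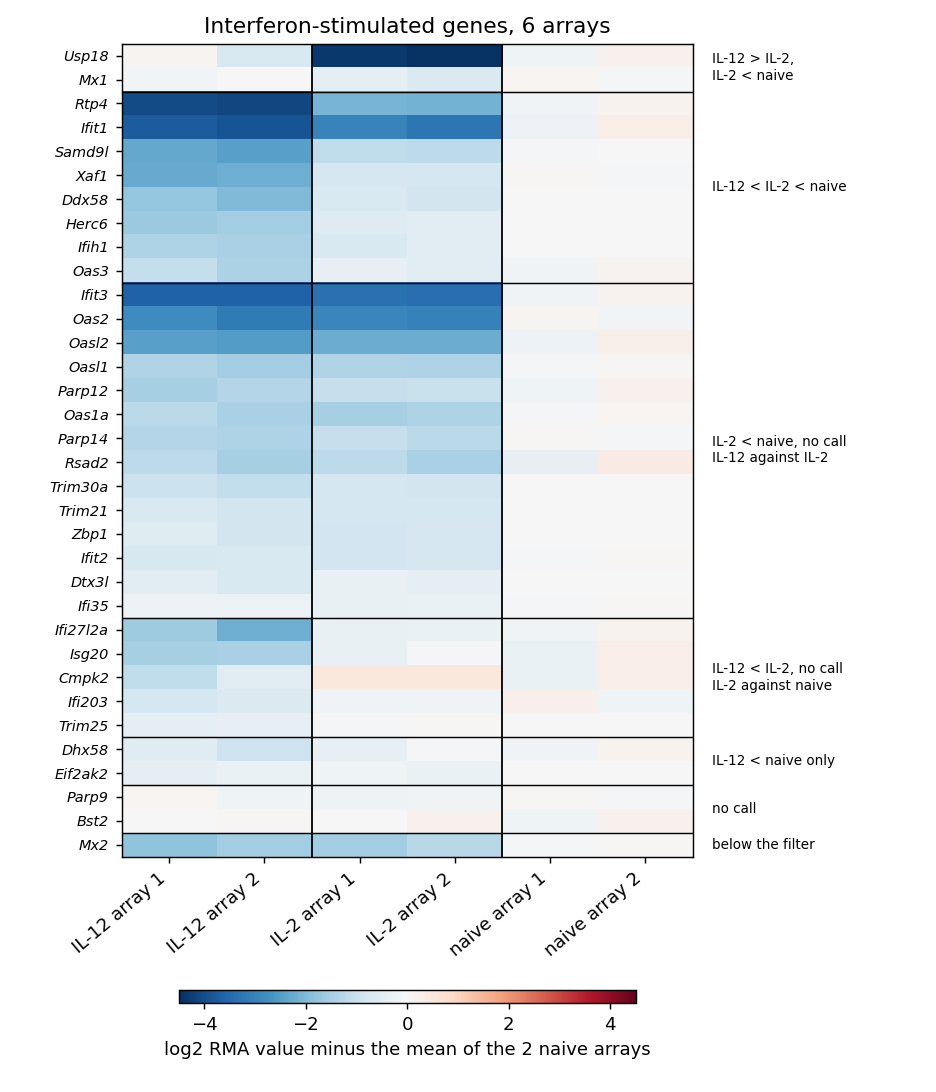
Heat map of the 34 members with a probe set of their own, 1 row a gene and 1 column an array, coloured by the log2 RMA value minus the mean of the naive arrays (blue lower, red higher than naive). Rows are grouped by their calls, and Usp18 is the only row that is dark in the IL-2 columns and near white in the IL-12 columns, with log2 differences from naive of -4.39 in IL-2 and -0.28 in IL-12 primed cells.

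Most other members were, like Usp18, lower in IL-2 primed than in naive cells, but they were not called higher in IL-12 than in IL-2 primed cells. In IL-2 against naive cells 24 of 33 members were lower (72.7%, against 19.9% of all tested genes), and 0 were higher by limma (25.8% of all tested genes), also 0 at an unadjusted p under 0.05. In IL-12 against naive cells 28 of 33 were lower (84.8%, against 26.7% of all tested genes) and 0 were higher (31.2% of all tested genes), again 0 at an unadjusted p under 0.05. The median log2 difference over the members was -0.77 in IL-2 and -1.33 in IL-12 against naive cells, where the medians over all tested genes were 0.01 and 0.04. In IL-12 against IL-2 primed cells 13 members were lower (39.4%, against 11.0% of all tested genes) and 2 were higher (6.06%, against 9.82%), and the median was -0.23 against 0.02 over all tested genes. Without Usp18, 25 of the other 32 members had a difference below zero, as had 47.4% of all tested genes. Members that were lower in IL-2 than in naive cells and lower still in IL-12 numbered 8 (24.2%, against 3.89% of all tested genes). The comparisons share arrays, IL-2 or naive, so their counts are not independent. Oas2, Oasl2 and Rsad2 passed the filter on low values through the naive arrays alone, which bears on their part in the counts against naive cells. Mean levels of 12 myeloid and conventional dendritic cell markers were 6.82 and 6.84 on the IL-12 arrays, 6.72 and 6.59 on the IL-2 arrays and 7.90 and 8.11 on the naive arrays. Of these, Lyz2 read 5.84 and 5.64, 5.65 and 5.20, and 9.31 and 9.35 in the same order. Itgam and Cst3 did not follow it, with group means of 7.52, 6.57 and 6.31 and of 11.54, 11.66 and 11.31. The 7 plasmacytoid dendritic cell markers averaged 7.99 and 8.01 in IL-12 primed, 7.41 and 7.39 in IL-2 primed and 7.89 in both naive arrays, with the defining marker Siglech between 5.99 and 6.41 throughout. Of the 6 of them tested, 3 were called higher (Spib, Ly6d and Irf8) and 1 lower in IL-12 than in IL-2 primed cells, 2 higher and 2 lower in IL-12 than in naive cells, and 1 higher and 3 lower in IL-2 primed than in naive cells. The 5 natural killer cell markers averaged 6.04 and 6.07 in IL-12 primed, 6.21 and 6.03 in IL-2 primed and 7.28 and 7.18 in naive cells. Both that were tested, Tyrobp and Eomes, were called lower than in naive cells in each primed group. Eomes, which is not particular to natural killer cells, was also called lower in IL-12 than in IL-2 primed cells. Ncr1, Klrb1c and Klra8 lay below the filter on low values, with group means between 4.43 and 5.92. Of the myeloid markers 9 were tested, and 6 were called lower in IL-12 and 7 in IL-2 primed than in naive cells. Called higher than in naive cells were 1 in IL-12 and 0 in IL-2 primed cells. In IL-12 against IL-2 primed cells 2 were called higher and 0 lower. The part of these cell types in the falls against naive cells was not tested.

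Among the sensors of viral nucleic acid, Ddx58 and Ifih1 were, like Usp18, lower in IL-2 primed than in naive cells, but in IL-12 primed cells they were lower still. Ddx58, which encodes the RNA helicase RIG-I, read 9.20 and 8.95 in IL-12 primed, 10.24 and 10.12 in IL-2 primed and 10.93 and 10.95 in naive cells. Ifih1, which encodes the long double-stranded RNA sensor MDA5, read 7.48 and 7.41 in IL-12 primed, 8.19 and 8.35 in IL-2 primed and 8.85 and 8.86 in naive cells. No arrays of different groups overlapped for either gene. In IL-12 against IL-2 primed cells Ddx58 gave -1.10 ± 0.12 (2.15-fold lower, adjusted p = 0.00042) and Ifih1 gave -0.82 ± 0.10 (1.77-fold lower, adjusted p = 0.00108). Against naive cells Ddx58 was lower by -1.86 in IL-12 and by -0.76 in IL-2 primed cells, and Ifih1 by -1.41 and -0.59 in the same order, all called. Zbp1, a sensor of Z-form nucleic acid, was lower in both primed groups (-0.68 in IL-12 and -0.82 in IL-2 against naive cells) with 0.14 between the cytokines (adjusted p = 0.48). Dhx58, the regulator LGP2, was called only in IL-12 against naive cells (-0.74, adjusted p = 0.00607), and that call was lost without IL-12 replicate 2 (adjusted p = 0.0526). Its difference between the cytokines, -0.52 with adjusted p = 0.0646, passed without IL-12 replicate 1 (adjusted p = 0.0494) and without either naive array (adjusted p = 0.0447).

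The IFIT proteins bind viral RNA and block its translation, and their genes gave some of the deepest falls of the set. Ifit1 read 6.48 and 6.35 in IL-12 primed, 7.20 and 6.96 in IL-2 primed and 9.94 and 10.51 in naive cells. Ifit3 read 6.78 and 6.79 in IL-12 primed, 7.05 and 6.98 in IL-2 primed and 10.27 and 10.57 in naive cells. Both genes were near the bottom of their range in every primed array and more than 2 log2 units higher in every naive array. Against naive cells Ifit1 was 14.0-fold lower in IL-12 (-3.81 ± 0.18, adjusted p = 4.41e-07) and 8.84-fold lower in IL-2 primed cells (-3.14 ± 0.18, adjusted p = 2.05e-06). Ifit3 was 12.5-fold lower in IL-12 (-3.64 ± 0.12, adjusted p = 6.4e-08) and 10.6-fold lower in IL-2 primed cells (-3.41 ± 0.12, adjusted p = 1.27e-07). The genes lie on the same stretch of chromosome 19 as Ifit2, which stands next to Ifit3 and fell less, by -0.69 in IL-12 and -0.80 in IL-2 against naive cells. Between the cytokines Ifit1 was lower in IL-12 (-0.67 ± 0.18, adjusted p = 0.0303), while Ifit3 gave -0.23 (adjusted p = 0.21) and Ifit2 gave 0.12 (adjusted p = 0.466). The Ifit1 call was lost with the arrays centred on their medians (adjusted p = 0.0515) and without any 1 of the 4 arrays, with adjusted p-values of 0.083 and 0.158 without IL-12 replicates 1 and 2 and of 0.186 and 0.0888 without IL-2 replicates 1 and 2.

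**Figure D2:**
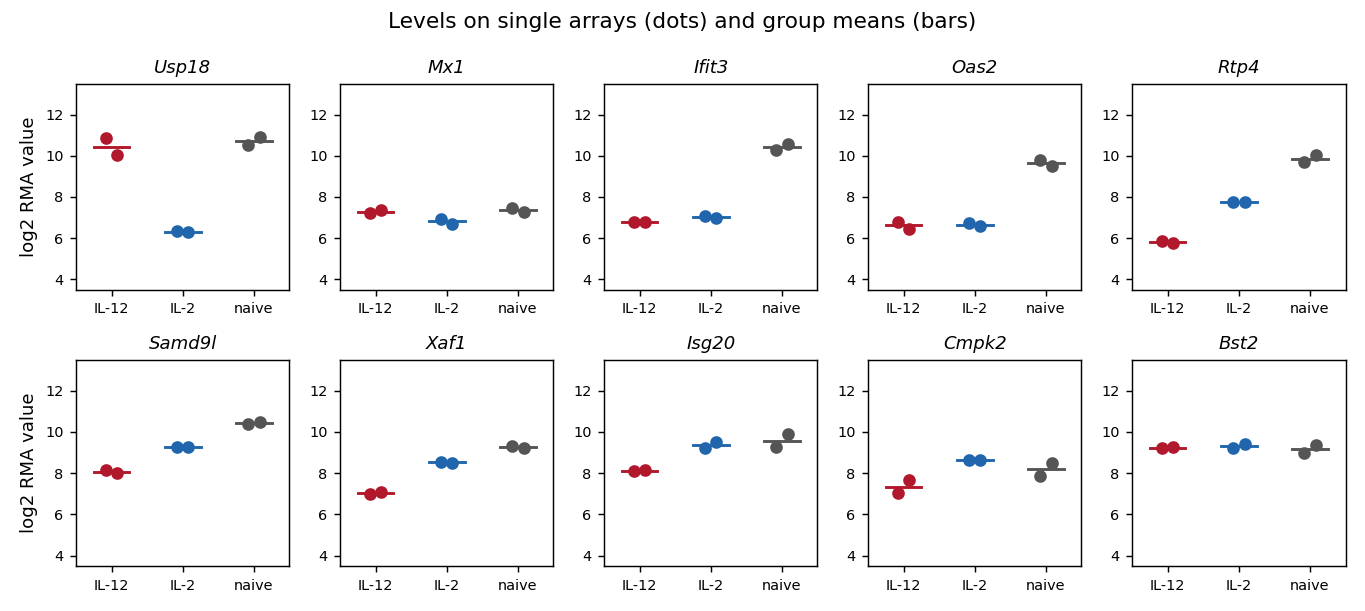
Levels of 10 members as log2 RMA values (vertical axis), 1 dot an array and a bar at the group mean, with IL-12 primed, IL-2 primed and naive cells left to right. Usp18 is high in IL-12 primed and naive cells, Ifit3 and Oas2 are low in both primed groups, Rtp4, Samd9l and Xaf1 descend in steps to 5.80, 8.08 and 7.04 in IL-12 primed cells, Isg20 and Cmpk2 are low in IL-12 primed cells alone, and Bst2 is level.

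Oligoadenylate synthetases make the short RNA-like messengers that activate RNase L. Oas2, Oas1a and the related genes Oasl2 and Oasl1 were lower in both primed groups than in naive cells. Oas2 read 6.80 and 6.45 in IL-12 primed, 6.71 and 6.61 in IL-2 primed and 9.77 and 9.52 in naive cells. Oasl2 read 6.34 and 6.24 in IL-12 primed, 6.53 and 6.53 in IL-2 primed and 8.49 and 9.05 in naive cells. The primed arrays lay together and far below the naive arrays for both genes. Both passed the filter on low values through the naive arrays alone, so a lower level in primed cells is built into that choice. Oas2 was 8.08-fold lower in IL-12 (-3.01 ± 0.14, adjusted p = 4.88e-07) and 7.91-fold lower in IL-2 primed than in naive cells (-2.98 ± 0.14, adjusted p = 7.14e-07), and Oasl2 was 5.58-fold and 4.73-fold lower in the same order. The difference between the cytokines was -0.03 ± 0.14 for Oas2 (adjusted p = 0.903) and -0.24 ± 0.17 for Oasl2 (adjusted p = 0.348). Oas1a read 7.28 and 7.03 in IL-12 primed, 7.00 and 7.12 in IL-2 primed and 8.43 and 8.58 in naive cells. Oasl1, which in the mouse holds back translation of Irf7, read 7.77 and 7.56 in IL-12 primed, 7.75 and 7.73 in IL-2 primed and 9.08 and 9.17 in naive cells. Their primed arrays overlapped between the cytokines, with differences of 0.10 for Oas1a (adjusted p = 0.622) and -0.08 for Oasl1 (adjusted p = 0.675). Against naive cells Oas1a was 2.55-fold lower in IL-12 and 2.73-fold lower in IL-2 primed cells, and Oasl1 was 2.75-fold and 2.61-fold lower, all called.

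Oas3 departed from its neighbour Oas2. It read 8.60 and 8.24 in IL-12 primed, 9.31 and 9.21 in IL-2 primed and 9.53 and 9.83 in naive cells, so that the IL-2 arrays lay close to the naive ones and the IL-12 arrays below both. The difference was -0.84 ± 0.15 for IL-12 against IL-2 (1.79-fold lower, adjusted p = 0.00553), -1.26 ± 0.15 for IL-12 against naive (adjusted p = 0.000126) and -0.42 ± 0.15 for IL-2 against naive (adjusted p = 0.0469). The first call was lost without IL-2 replicate 1 (adjusted p = 0.0525). The last was lost with no filter on low values (adjusted p = 0.0626), with median centring (0.147) and without naive replicate 2 (0.185) or either IL-2 array (0.122 and 0.2 without replicates 1 and 2). Eif2ak2, the double-stranded RNA activated kinase PKR, was called only in IL-12 against naive cells (-0.35, adjusted p = 0.0168), a call lost with quantile normalisation (adjusted p = 0.0533), median centring (0.12) and without IL-12 replicate 1 (0.108).

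In the ISG15 system, Usp18 and the ligase genes were called in opposite directions between the cytokines. Herc6, which encodes the main ISG15 ligase of the mouse, read 8.29 and 8.39 in IL-12 primed, 9.38 and 9.46 in IL-2 primed and 9.95 and 9.99 in naive cells. Trim25, a ubiquitin ligase that acts on RIG-I, read 9.77 and 9.81 in IL-12 primed, 10.08 and 10.24 in IL-2 primed and 10.17 and 10.18 in naive cells. The IL-12 arrays were the lowest for both, and for Trim25 the IL-2 and naive arrays overlapped. Herc6 was 2.12-fold lower in IL-12 than in IL-2 primed cells (-1.08 ± 0.10, adjusted p = 0.000223) and was lower than in naive cells by -1.63 in IL-12 and by -0.55 in IL-2 primed cells. Trim25 was lower in IL-12 than in IL-2 primed cells by -0.37 ± 0.10 (adjusted p = 0.0359) and than in naive cells by -0.38 (adjusted p = 0.0117). The first of these calls was lost with median centring (adjusted p = 0.0704) and without any 1 of the 4 arrays, with adjusted p-values of 0.164 and 0.141 without IL-12 replicates 1 and 2 and of 0.095 and 0.264 without IL-2 replicates 1 and 2. The other was lost with median centring (0.0799) and without IL-12 replicate 1 (0.0702).

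Rtp4, a Golgi chaperone that in the mouse also restrains the kinase TBK1, showed the deepest fall of the set in IL-12 primed cells. It read 5.84 and 5.76 in IL-12 primed, 7.77 and 7.75 in IL-2 primed and 9.71 and 10.02 in naive cells. The groups were about 2 log2 units apart at each step, with a spread within primed groups of less than 0.1. Rtp4 was 16.8-fold lower in IL-12 than in naive cells (-4.07 ± 0.12, adjusted p = 4.08e-08), 4.32-fold lower in IL-2 than in naive cells (-2.11 ± 0.12, adjusted p = 2.49e-06) and 3.88-fold lower in IL-12 than in IL-2 primed cells (-1.96 ± 0.12, adjusted p = 2.82e-05). The last value ranked 15 among the falls of all tested genes. Bst2, the tetherin that holds budding virus at the cell surface, read 9.20 and 9.26 in IL-12 primed, 9.22 and 9.40 in IL-2 primed and 9.00 and 9.38 in naive cells. Its groups overlapped in all 3 comparisons, and its differences lay between -0.08 and 0.12. Mx2 read 4.41 and 4.67 in IL-12 primed, 4.65 and 4.96 in IL-2 primed and 6.16 and 6.29 in naive cells. It was below the filter, and its primed arrays lay at the level of the Y-linked probe sets. A limma fit without the filter gave falls of -1.69 in IL-12 (adjusted p = 1.15e-05) and -1.42 in IL-2 against naive cells (adjusted p = 5.91e-05). If that level is also the floor of the Mx2 probe set, these are lower bounds on the size of the fall.

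Of the enzymes of RNA and nucleotides, Rsad2 and its neighbour Cmpk2 differed. Rsad2, which encodes viperin and turns CTP into a chain-terminating analogue, read 6.05 and 5.73 in IL-12 primed, 6.04 and 5.75 in IL-2 primed and 6.84 and 7.60 in naive cells. Cmpk2, a mitochondrial nucleotide kinase that can supply CTP, read 7.02 and 7.67 in IL-12 primed, 8.65 and 8.64 in IL-2 primed and 7.87 and 8.49 in naive cells. Rsad2 was low in both primed groups, whereas the IL-2 arrays were the highest for Cmpk2 and the IL-12 arrays the lowest. Rsad2 passed the filter on low values through the naive arrays alone, so its lower level in primed cells is built into that choice. Rsad2 was 2.52-fold lower in IL-12 (-1.33 ± 0.23, adjusted p = 0.00118) and 2.50-fold lower in IL-2 primed than in naive cells (-1.32 ± 0.23, adjusted p = 0.00187), with -0.01 between the cytokines (adjusted p = 0.986). Cmpk2 was 2.45-fold lower in IL-12 than in IL-2 primed cells (-1.29 ± 0.24, adjusted p = 0.00637) and 1.78-fold lower than in naive cells (-0.83 ± 0.24, adjusted p = 0.0151), with 0.46 for IL-2 against naive cells (adjusted p = 0.143). The first call was lost without IL-2 replicate 2 (adjusted p = 0.0511) and the second without IL-12 replicate 1 (0.11) or naive replicate 2 (0.0933), and the IL-2 against naive difference passed without naive replicate 2 (0.77, adjusted p = 0.0297).

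Isg20, an RNA exonuclease, read 8.09 and 8.13 in IL-12 primed, 9.23 and 9.50 in IL-2 primed and 9.28 and 9.88 in naive cells. Samd9l read 8.14 and 8.02 in IL-12 primed, 9.29 and 9.26 in IL-2 primed and 10.41 and 10.48 in naive cells. Isg20 was low in IL-12 primed cells alone, with IL-2 and naive arrays overlapping, and Samd9l descended in even steps. Isg20 was 2.39-fold lower in IL-12 than in IL-2 primed cells (-1.26 ± 0.19, adjusted p = 0.0023) and 2.77-fold lower than in naive cells (-1.47 ± 0.19, adjusted p = 0.000182), and IL-2 against naive cells gave -0.21 (adjusted p = 0.382), which became -0.51 without naive replicate 1 (adjusted p = 0.0204). Samd9l was 2.29-fold lower in IL-12 than in IL-2 primed cells (-1.20 ± 0.10, adjusted p = 0.000132), 5.16-fold lower in IL-12 than in naive cells (-2.37 ± 0.10) and 2.25-fold lower in IL-2 than in naive cells (-1.17 ± 0.10).

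The ADP-ribosyltransferase genes and the partner ligase Dtx3l had no call between the cytokines in any of 4 members. Parp12 read 7.53 and 7.68 in IL-12 primed, 7.99 and 8.01 in IL-2 primed and 8.81 and 9.20 in naive cells. Parp14 read 8.96 and 8.88 in IL-12 primed, 9.22 and 9.07 in IL-2 primed and 10.32 and 10.23 in naive cells. Both were lowest in IL-12 primed cells with no overlap, yet neither difference between the cytokines was called, at -0.39 for Parp12 (adjusted p = 0.0814) and -0.23 for Parp14 (adjusted p = 0.171). Without either naive array the Parp12 difference passed (adjusted p = 0.0167). Against naive cells Parp12 was 2.63-fold lower in IL-12 and 2.01-fold lower in IL-2 primed cells, and Parp14 was 2.55-fold and 2.18-fold lower, all called. Dtx3l and Parp9, whose products form a complex, lie next to Parp14. Dtx3l gave -0.57 in IL-12 and -0.37 in IL-2 against naive cells, and the IL-2 call was lost with median centring (adjusted p = 0.109) and without naive replicate 2 (0.0507) or either IL-2 array (0.0865 and 0.143 without replicates 1 and 2). Parp9 had no call, with differences between -0.19 and 0.14.

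Trim30a, a ligase that restrains Toll-like receptor signalling in the mouse, read 11.03 and 10.87 in IL-12 primed, 11.20 and 11.14 in IL-2 primed and 11.98 and 11.99 in naive cells. All primed arrays lay below the naive ones. It was 2.05-fold lower in IL-12 (-1.03 ± 0.10) and 1.76-fold lower in IL-2 primed than in naive cells (-0.81 ± 0.10), with -0.22 between the cytokines (adjusted p = 0.175). Trim21, an antibody receptor of the cytosol, was lower in both primed groups, by -0.76 in IL-12 and by -0.80 in IL-2 against naive cells, with 0.04 between the cytokines (adjusted p = 0.828).

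Xaf1, an antagonist of the apoptosis inhibitor XIAP, and Ifi27l2a, a small membrane protein, were both far lower with IL-12 than with IL-2. Xaf1 read 7.01 and 7.08 in IL-12 primed, 8.55 and 8.50 in IL-2 primed and 9.34 and 9.24 in naive cells. Ifi27l2a read 8.89 and 8.31 in IL-12 primed, 10.17 and 10.19 in IL-2 primed and 10.34 and 10.67 in naive cells. The IL-12 arrays stood well below all others for both genes. Xaf1 was 2.79-fold lower in IL-12 than in IL-2 primed cells (-1.48 ± 0.10, adjusted p = 4.25e-05), 4.76-fold lower than in naive cells, and 1.71-fold lower in IL-2 than in naive cells. Ifi27l2a was 3.0-fold lower in IL-12 than in IL-2 primed cells (-1.58 ± 0.19, adjusted p = 0.000711) and 3.74-fold lower than in naive cells, with -0.32 for IL-2 against naive cells (adjusted p = 0.192).

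Ifi203, of the PYHIN family of DNA-binding proteins, read 11.03 and 11.17 in IL-12 primed, 11.63 and 11.62 in IL-2 primed and 12.03 and 11.60 in naive cells. The IL-12 arrays were lowest, and the IL-2 arrays lay within the naive range. It was 1.44-fold lower in IL-12 than in IL-2 primed cells (-0.52 ± 0.15, adjusted p = 0.036), a call lost without any 1 of the 4 arrays, with adjusted p-values of 0.172 and 0.0976 without IL-12 replicates 1 and 2 and of 0.158 and 0.168 without IL-2 replicates 1 and 2. Its IL-2 against naive difference of -0.19 (adjusted p = 0.33) passed without naive replicate 2 (-0.40, adjusted p = 0.0171). Ifi35, a partner of the cytokine regulator NMI, gave -0.26 in IL-12 (adjusted p = 0.0515) and -0.32 in IL-2 against naive cells (adjusted p = 0.0304). The IL-2 call was lost with median centring (adjusted p = 0.173), with the compared groups alone (0.056) and without any 1 of 5 arrays. The difference was then -0.32 without either IL-12 array, -0.30 and -0.34 without IL-2 replicates 1 and 2, and -0.25 without naive replicate 2. The IL-12 difference passed with the filter at the 75th percentile (adjusted p = 0.0427) and with quantile normalisation (0.0295). It also passed without naive replicate 1, at -0.33.

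**Figure D3:**
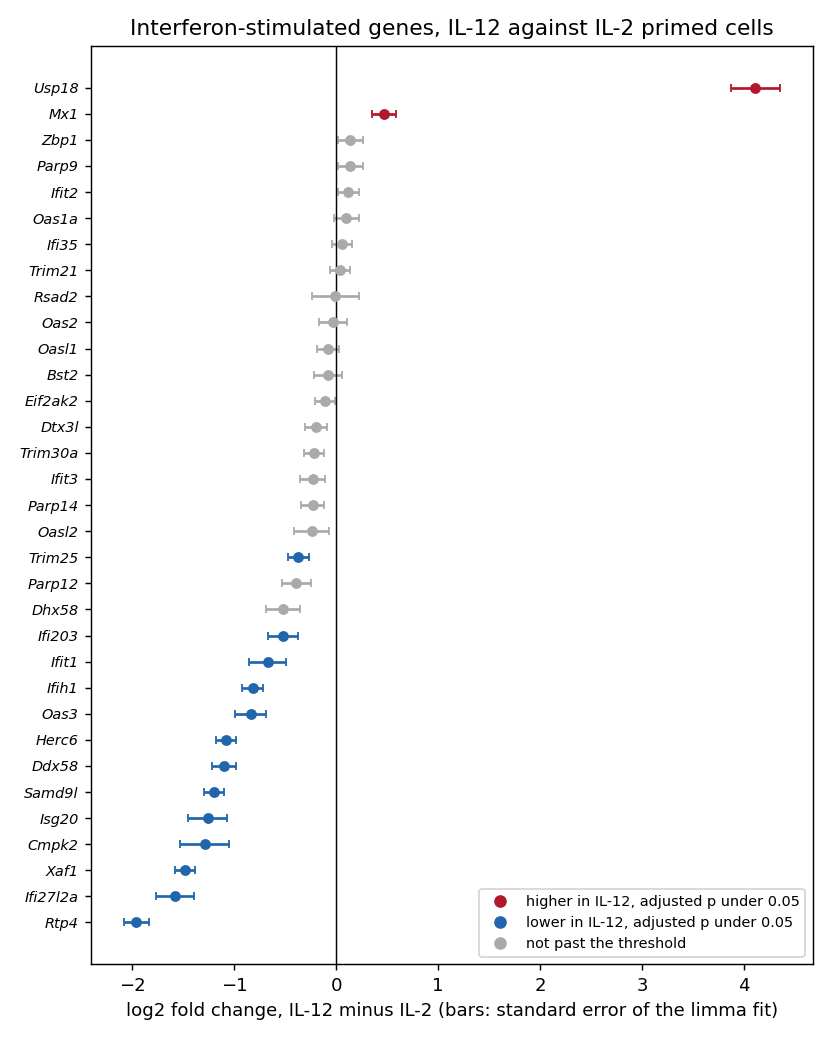
Log2 fold change in IL-12 against IL-2 primed cells for the 33 tested members (horizontal axis), in order of size, with bars for the SE from limma. Usp18 at 4.11 stands apart from Mx1 at 0.47, the only other member called higher, and 13 members down to Rtp4 at -1.96 are called lower.

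The genes upstream of these members were examined from lists of the pathway. Of the type I interferon ligands and receptor chains, 3 were tested. Ifnar1 read 9.77 and 9.74 in IL-12 primed, 10.61 and 10.69 in IL-2 primed and 10.53 and 10.51 in naive cells. Ifnar2, the chain that USP18 binds, read 10.51 and 10.76 in IL-12 primed, 11.72 and 11.76 in IL-2 primed and 10.95 and 11.08 in naive cells. Both receptor chains were lowest in IL-12 primed cells without overlap, and Ifnar2 was highest in IL-2 primed cells. Ifnar1 was 1.85-fold lower (-0.89 ± 0.10, adjusted p = 0.000499) and Ifnar2 2.15-fold lower (-1.10 ± 0.12, adjusted p = 0.000416) in IL-12 than in IL-2 primed cells. Against naive cells Ifnar2 was higher with IL-2 (0.72 ± 0.12, adjusted p = 0.00124). The ligand genes Ifnb1 and Ifna4 lay below the filter, with group means between 4.55 and 5.58, and Ifna2 had no call, with differences between -0.24 and 0.23.

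Of the 4 signal transducers tested, 1 was lower in IL-12 than in IL-2 primed cells, and 4 in IL-12 and 3 in IL-2 primed cells were lower than in naive cells, where 11.0%, 26.7% and 19.9% of all tested genes were lower. None was higher. Irf9, the DNA-binding partner of STAT2, read 9.33 and 9.24 in IL-12 primed, 9.78 and 9.96 in IL-2 primed and 10.25 and 10.53 in naive cells. It thus descended in the same order as Rtp4 and Samd9l. It was 1.50-fold lower in IL-12 than in IL-2 primed cells (-0.58 ± 0.13, adjusted p = 0.0133), 2.15-fold lower in IL-12 than in naive cells and 1.44-fold lower in IL-2 than in naive cells. Stat2 read 9.28 and 8.93 in IL-12 primed, 9.42 and 9.38 in IL-2 primed and 9.74 and 9.80 in naive cells, with -0.30 between the cytokines (adjusted p = 0.137), -0.67 for IL-12 (adjusted p = 0.00202) and -0.37 for IL-2 against naive cells (adjusted p = 0.0431). Jak1 was 2.02-fold lower in IL-12 and 1.68-fold lower in IL-2 primed than in naive cells, and Tyk2 was lower in IL-12 than in naive cells by -0.39 (adjusted p = 0.0196).

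Among 10 tested regulators of interferon genes and sensing adaptors, 1 was higher and 2 were lower in IL-12 than in IL-2 primed cells, while 3 were higher and 3 lower than in naive cells in either primed group. Over all tested genes the shares were 9.82% higher and 11.0% lower between the cytokines, 31.2% and 26.7% in IL-12 against naive cells and 25.8% and 19.9% in IL-2 against naive cells, so these counts lie near the background and are no result about the list. Irf7, the factor that amplifies interferon transcription and is itself interferon-induced, read 8.02 and 7.77 in IL-12 primed, 9.23 and 9.16 in IL-2 primed and 10.46 and 10.75 in naive cells. Ikbke, a kinase that activates these factors, read 9.33 and 9.28 in IL-12 primed, 10.39 and 10.44 in IL-2 primed and 11.35 and 11.04 in naive cells. Both descended in 2 steps without overlap. Irf7 was 2.47-fold lower in IL-12 than in IL-2 primed cells (-1.30 ± 0.13, adjusted p = 0.000354), 6.53-fold lower in IL-12 than in naive cells (adjusted p = 6.16e-07) and 2.65-fold lower in IL-2 than in naive cells (adjusted p = 5.8e-05). Ikbke was 2.16-fold lower in IL-12 than in IL-2 primed cells, 3.72-fold lower in IL-12 than in naive cells and 1.72-fold lower in IL-2 than in naive cells. Tlr7, a receptor for single-stranded RNA that passed the filter on low values through the naive arrays alone and so had to differ, was 5.26-fold lower in IL-12 and 6.57-fold lower in IL-2 primed than in naive cells. Myd88, the adaptor of Toll-like receptors, was higher in IL-12 than in IL-2 primed cells (0.65, adjusted p = 0.00549) and 2.07-fold higher than in naive cells.

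Of the 8 feedback inhibitors other than Usp18, 1 was higher in IL-12 than in IL-2 primed cells, and 4 in each primed group were lower than in naive cells. Of all tested genes 9.82% were higher between the cytokines, and 26.7% in IL-12 and 19.9% in IL-2 primed cells were lower than in naive cells. The 1 higher gene is near that background. It was Socs3, an inhibitor of cytokine receptors, which read 9.04 and 8.96 in IL-12 primed, 8.39 and 8.66 in IL-2 primed and 9.49 and 9.75 in naive cells. Its IL-12 arrays lay between the IL-2 and the naive arrays. Socs3 differed by 0.47 ± 0.13 in IL-12 against IL-2 (adjusted p = 0.0377), by -0.62 in IL-12 against naive and by -1.09 in IL-2 against naive cells. It shared the pattern of a fall in IL-2 and a higher level in IL-12 with Usp18, at rank 140 of the 216 genes.

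Interferon-stimulated genes outside the member list were also called lower more often than higher in each comparison. Of 34 tested, Irf7 among them, 13 were lower and 2 higher in IL-12 than in IL-2 primed cells (median -0.24), 19 lower and 5 higher in IL-12 than in naive cells (median -0.46), and 15 lower and 4 higher in IL-2 primed than in naive cells (median -0.27). Over all tested genes 11.0%, 26.7% and 19.9% were lower and 9.82%, 31.2% and 25.8% higher in the same order, with medians of 0.02, 0.04 and 0.01. The counts include Ddx60, which passed the filter through the naive arrays alone, and Cxcl10, which passed through the IL-12 arrays alone, so that both had to differ. Rnf213, a large ubiquitin ligase, was 2.50-fold lower in IL-12 than in IL-2 primed cells and 10.2-fold lower in IL-12 and 4.10-fold lower in IL-2 than in naive cells. Ddx60, a helicase, was 1.65-fold lower in IL-12 than in IL-2 primed cells and 9.56-fold lower in IL-12 and 5.81-fold lower in IL-2 than in naive cells. Both genes were lowest in IL-12 primed and highest in naive cells. Oas1b was 2.50-fold lower in IL-12 than in IL-2 primed cells and 3.80-fold and 1.52-fold lower than in naive cells in IL-12 and in IL-2 primed cells. Helz2, Uba7 and Adar, the last an RNA-editing enzyme, were lower in IL-12 than in IL-2 primed cells by -0.46, -0.44 and -0.49 and lower in IL-12 than in naive cells by -1.28, -1.19 and -1.09. Ms4a4c was 2.57-fold lower in IL-12 and 2.13-fold lower in IL-2 than in naive cells, with no call between the cytokines. Epsti1 was lower in IL-12 than in IL-2 primed cells by -1.01 (adjusted p = 0.000247) and, against naive cells, higher with IL-2 by 0.57. Xdh, xanthine dehydrogenase, was 2.43-fold (IL-12) and 3.22-fold (IL-2) higher than in naive cells.

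The genes called higher in IL-12 than in IL-2 primed cells in this wider list were Plac8 and Cxcl10. Cxcl10, a chemokine that interferon gamma also induces, read 8.18 and 7.71 in IL-12 primed, 6.61 and 6.18 in IL-2 primed and 6.36 and 6.47 in naive cells. Its IL-12 arrays stood above all others, and its IL-2 and naive arrays overlapped. Cxcl10 passed the filter on low values through the IL-12 arrays alone, so a higher level there is built into that choice. It was 2.94-fold higher in IL-12 than in IL-2 primed cells (1.56 ± 0.18, adjusted p = 0.000686) and 2.89-fold higher than in naive cells. Plac8 was 3.42-fold higher in IL-12 than in IL-2 primed cells (1.77 ± 0.19, adjusted p = 0.000382) and 4.88-fold higher than in naive cells. Neither gene fell in IL-2 primed cells, where Cxcl10 gave -0.02 and Plac8 0.51 against naive cells, so neither had the Usp18 pattern.

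**Figure D4:**
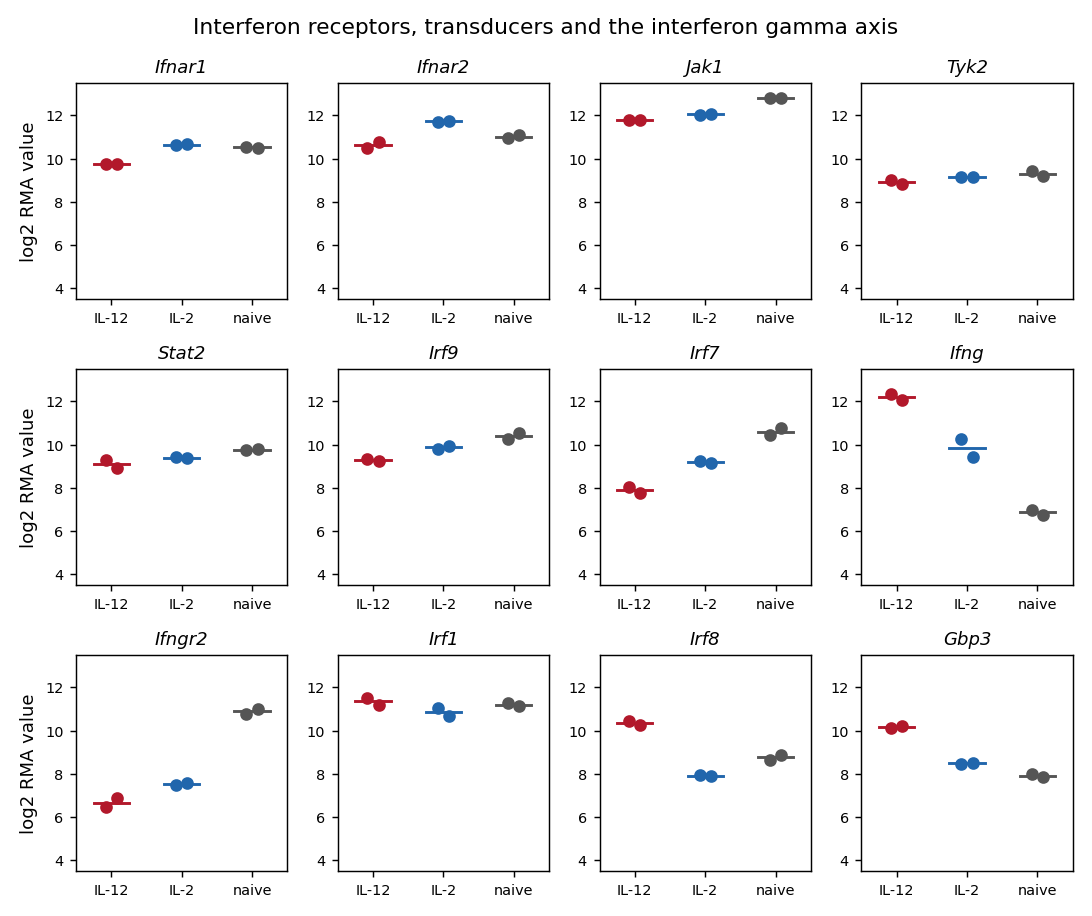
Levels of 12 genes of the interferon pathways as log2 RMA values (vertical axis), 1 dot an array and a bar at the group mean, with IL-12 primed, IL-2 primed and naive cells left to right. Ifnar1, Ifnar2, Irf9 and Irf7 are lowest in IL-12 primed cells, while Ifng, Irf8 and Gbp3 are highest there, with means of 12.21, 10.35 and 10.18.

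Of 10 genes tested of the interferon gamma axis, 5 were higher and 1 lower in IL-12 than in IL-2 primed cells, with a median of 0.50, 4 were higher and 3 lower in IL-12 than in naive cells, and 3 higher and 4 lower in IL-2 than in naive cells. Over all tested genes the shares were 9.82% higher and 11.0% lower between the cytokines (median 0.02). Against naive cells they were 31.2% and 26.7% in IL-12 and 25.8% and 19.9% in IL-2 primed cells. The 4 genes lower in IL-2 than in naive cells lie above that share, and the other counts against naive cells lie near theirs. Ciita and Cxcl9, among the lower genes of both primed groups, passed the filter through the naive arrays alone, so their falls against naive cells are built into that choice. Ifng itself read 12.35 and 12.08 in IL-12 primed, 10.25 and 9.43 in IL-2 primed and 6.96 and 6.76 in naive cells. Irf8, an interferon gamma induced factor that is also on the plasmacytoid dendritic cell list, read 10.43 and 10.26 in IL-12 primed, 7.94 and 7.90 in IL-2 primed and 8.66 and 8.86 in naive cells. Gbp3, a guanylate-binding protein, read 10.14 and 10.22 in IL-12 primed, 8.47 and 8.51 in IL-2 primed and 7.98 and 7.84 in naive cells. All of these were highest in IL-12 primed cells without overlap, and Irf8 was lowest in IL-2 primed cells. In IL-12 against IL-2 primed cells Ifng was 5.18-fold higher (2.37 ± 0.23, adjusted p = 0.00027), Irf8 5.37-fold higher (2.43 ± 0.12, adjusted p = 8.79e-06) and Gbp3 3.22-fold higher (1.69 ± 0.10, adjusted p = 2.57e-05). Irf8 and Ciita, the activator of MHC class II genes, had the Usp18 pattern, at ranks 47 and 124 of the 216 genes. Ciita differed by 0.51 in IL-12 against IL-2 (adjusted p = 0.0292) and by -1.24 in IL-2 against naive cells, and Irf1 was higher in IL-12 than in IL-2 primed cells by 0.50 (adjusted p = 0.0451) with no call in IL-2 against naive cells. The receptor chain Ifngr2 was lower in IL-12 than in IL-2 primed cells (-0.87, adjusted p = 0.00543) and 18.9-fold and 10.3-fold lower than in naive cells in IL-12 and in IL-2 primed cells. Cxcl9, a chemokine of the same family as Cxcl10, was 2.38-fold lower in IL-12 and 2.52-fold lower in IL-2 than in naive cells, with no call between the cytokines.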

How the data were processed

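The log2 values that the authors deposited cover 35556 probe sets on 6 arrays. RMA is the tool the submitters' processing notes name; its version, settings and the genome build are not given in the sources used here. Of the probe sets, 21789 carried 1 gene symbol in the platform annotation, 1621 several and 12146 none listed; the first gave 19938 genes, and the highest-mean probe set stood for each. No array was left out. Tests were limited to the 11147 genes with 2 or more of 6 arrays over 6.83, the 50th percentile of the table. limma 3.58.1 in R 4.3.3 fitted 1 mean per group to all 6 arrays with lmFit and eBayes (3 residual and 5.62 prior degrees of freedom), with two-sided p-values adjusted by Benjamini-Hochberg over all tested genes of a comparison and called under 0.05. Simulated data with 200 changed genes were used to test the fit.

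The members, the pathway and marker lists and the tests were chosen with earlier results of these data known. Every member is named; values of every array were given for Usp18, members with its pattern, members called with at least a 2-fold difference and members called lower in IL-12 than in IL-2 primed cells. Of the pathway lists, genes called with at least a 2-fold difference were named, with Ifnar1, Ifnar2, Stat2, Irf9, Irf7 and Ifng always, a few others being chosen after their values were seen. The alternatives were an unfiltered table, a 75th percentile filter, averaged probe sets, quantile normalisation, median centring, trended robust eBayes, the compared groups alone, a replicate block and leaving out each array.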

Additional observations from a re-analysis of the deposited data

How the results depend on the processing

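Of the 67 calls made over the 33 members and 3 comparisons, 53 passed under each of the 14 alternatives in which the gene was tested (47 under 14 and 6, of Oas1a, Oasl2 and Rsad2, under 11 to 13) and 14 were lost under at least 1; of the 32 differences without a call 7 passed under at least 1, and 0 calls changed sign. The Usp18 differences ran between 3.71 and 4.52 in IL-12 against IL-2 (adjusted p up to 0.000561) and between -4.58 and -4.21 in IL-2 against naive cells. With the filter at the 75th percentile, which Mx1 did not pass, the members higher in IL-12 than in IL-2 primed cells and those with the Usp18 pattern each numbered 1, and leaving out arrays 1 at a time gave 1 to 2 for both. Leaving out arrays gave 9 to 15 members lower in IL-12 than in IL-2, 26 to 29 lower in IL-12 than in naive, 20 to 25 lower and 0 to 1 higher in IL-2 than in naive, and 6 to 10 with the stepwise fall. Over the pathway lists, each gene counted once, 18 genes were lower and 9 higher in IL-12 than in IL-2 (8 to 21 and 5 to 11 without 1 array), and 28 lower and 11 higher in IL-2 primed than in naive cells (16 to 30 and 6 to 13); the lowest counts came without IL-2 replicate 2 in the first comparison and without IL-2 replicate 1 in the second. Replicate numbers did not pair the samples: deviations of same-numbered arrays correlated at 0.15, -0.02 and 0.02. Fitted as a replicate block they gave 1 member, Cmpk2 (adjusted p = 0.0442), that was higher with IL-2 than in naive cells. Median centring moved the median of all genes to 0.16 in IL-12 and 0.11 in IL-2 against naive cells. It gave 4051 genes higher and 2279 lower in IL-12 (3482 and 2972 as deposited) and 3282 and 1562 in IL-2 (2873 and 2222), while the member medians were -1.19 and -0.67. Over all genes, calls in IL-12 against IL-2, 1095 higher and 1226 lower, were 338 and 399 without IL-2 replicate 2 and 1695 and 1838 with the compared groups alone. With 2 arrays a group, small differences in either direction cannot be told from the spread between arrays.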
